A study of Mus musculus with 18 samples.

Results

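The genes described here encode the enzymes and carriers of mitochondrial fatty acid oxidation, with a few proteins that feed or limit the pathway. They were chosen by name as a list of 35 genes, with earlier results of these data known. Every probe set whose annotation gave 1 symbol from the list was taken. Of the 35 genes, 32 had such a probe set, 59 probe sets of 45265 on the chips. The chips cover 18194 genes by this annotation. After a filter on low signal, 30 genes with 46 probe sets of 27083 were tested, 39 of them on chip 430A and 7 on chip 430B. Acsl4 and Acot1 lay below the filter, with highest mean signals of 123.5 and 83.7. Acsl1, Cpt1b and Ucp2 were not analysed here. The list therefore has no value for the main synthetase and for the muscle form of carnitine palmitoyltransferase 1, the carnitine acyltransferase of the outer membrane.

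Heart RNA of male mice was hybridized to Affymetrix mouse chips 430A and 430B, and a probe set's value is its MAS5 signal, a measure of brightness on a linear scale. All mice carried Tet-myrAkt1, a transgene for a form of the kinase Akt1 that is always active, and αMHC-tTA, a driver that works in heart muscle cells. The groups of 3 hearts each were taken before AAC, the operation that loads the heart with pressure (age 8 weeks), 4 weeks after it (age 12 weeks), and 6 weeks after it under active Akt (age label again 12 weeks). They are called before-AAC, 4-week and Akt-on hearts here. The labels disagree on how long Akt was on, with 3 weeks in the titles and 2 weeks in the descriptions, and 4-week replicate 3 is numbered 1 in its description. No group aged without AAC, so AAC and age cannot be told apart, nor can Akt and the further time after AAC. Nothing says whether RNA was pooled or which chambers were taken. The p-values therefore measure the spread between these samples, which may be technical in part.

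Mitochondrial fatty acid oxidation supplies much of the ATP of the adult heart. Fatty acids are first joined to coenzyme A, carried into the matrix as carnitine esters, and shortened there in rounds of dehydrogenation, hydration, a second dehydrogenation and thiolysis. Electrons of the first dehydrogenation pass through the electron transfer flavoprotein to ubiquinone. Many genes of the pathway are known targets of the nuclear receptor PPARα and its coactivator PGC-1α, and lower pathway transcripts are a known feature of failing hearts.

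Some features of the hearts bear on all results below. Akt1 probe set 1425711_a_at had 2614, 3762 and 6535 signal units in Akt-on hearts, against 571, 821 and 917 in 4-week hearts, and rose by 2.36 on the log2 scale (limma, adjusted p = 0.0031). Akt1 probe set 1416657_at did not pass (0.01, adjusted p = 0.99). Signals of the heart muscle markers Myh6, Tnnt2, Actc1, Myl2, Tnni3, Ryr2 and Pln summed to 168524 to 206997 in Akt-on hearts and 188694 to 204442 in 4-week hearts, both below the 214597 to 242717 of before-AAC hearts. Of the 13 probe sets of these 7 markers, 1 was called lower and 1 higher at 4 weeks against before AAC. The higher one was the dimmer Myh6 probe set, 1417729_at. The brighter Myh6 probe set, 1448826_at, gave -0.16 there and did not pass (limma adjusted p = 0.41). A rise of Myh6 as a gene is therefore not shown. With Akt on against before AAC 4 of the 13 were called lower and 1 higher, and against 4 weeks none was called. Myh6 1448826_at was among the lower ones against before AAC (-0.38, adjusted p = 0.031). The sums therefore do not speak for each marker. As a background for all marker counts here, 4.43% of all probe sets were called at 4 weeks against before AAC. With Akt on the share was 2.54% against 4 weeks and 13.4% against before AAC. In bulk RNA, fewer cells of a type and less RNA per cell cannot be told apart. The 7 fibroblast markers summed to 43781 to 69945 in Akt-on hearts, above 27154 to 43363 in 4-week hearts. Of their 14 probe sets 6 rose there, beside a background of 1.08% for rises. The 6 endothelial markers summed to 6507 to 6724 in Akt-on hearts, 6727 to 7879 in 4-week hearts and 10065 to 10168 in before-AAC hearts. Of their 7 probe sets, 1 was called lower at 4 weeks and 2 with Akt on, each against before AAC. Between Akt-on and 4-week hearts none was called. The 6 brown adipocyte markers summed to 8470 to 10845 in Akt-on hearts and 9789 to 13136 in 4-week hearts, both below the 13866 to 16445 of before-AAC hearts, while their defining marker Ucp1 stayed between 12.3 and 89.3 in all hearts. Of these 6 markers 3 were tested, and none was called at 4 weeks against before AAC. With Akt on against before AAC 1 was called higher and 1 lower. The 6 skeletal muscle markers summed to 20160 to 24272 in Akt-on and 20248 to 23674 in 4-week hearts, also below the 27058 to 29511 of before-AAC hearts. Only 1 of these 6 passed the signal filter, so the sum does not speak for the others. Its 2 probe sets were not called in any comparison. The 5 macrophage markers summed to 5627 to 8551 in 4-week hearts, below the 8757 to 9435 of before-AAC hearts, and none of their 9 probe sets was called there. The 3′ to 5′ ratio of β-actin, a measure of RNA integrity, was 1.04 to 1.22 in Akt-on hearts and 1.14 to 1.21 in 4-week hearts, against 1.49 to 2.04 in before-AAC hearts (exact permutation p = 0.1 for either later group against before AAC, the smallest 3 against 3 allow). The mean log2 signal of 4 atrial genes stood between 13.4 and 14.4 in Akt-on replicate 1, 4-week replicate 1 and before-AAC replicates 2 and 3, and between 8.09 and 11.1 in the other 5 hearts. The part of these features in the results was not tested, except that each call was also computed without the 4 atrial-rich hearts and with the atrial score as a covariate.

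The promoters of 6 members are shown first, those whose main probe set (430A before 430B, then the highest mean signal) passed the test at 4 weeks against before AAC or with Akt on against 4 weeks. The same holds for Acad9, which is named only. Their sequences are RefSeq's on GRCm38.p6, from 250 bases before to 50 after the gene's start, written 5′ to 3′ along the gene. Capitals mark the letters GGGCGG, the GC box bound by Sp1-type factors, and AGGTCA, the half-site of nuclear receptors, on either strand (CCGCCC and TGACCT on the opposite strand).
Cpt2, chr4:107923540-107923839, minus strand: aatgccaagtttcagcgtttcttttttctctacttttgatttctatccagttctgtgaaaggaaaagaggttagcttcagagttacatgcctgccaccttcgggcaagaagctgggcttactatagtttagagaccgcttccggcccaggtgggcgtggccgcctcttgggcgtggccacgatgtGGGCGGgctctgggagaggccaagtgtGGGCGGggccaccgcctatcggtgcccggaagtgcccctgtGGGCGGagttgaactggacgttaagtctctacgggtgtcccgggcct
Slc25a20, chr9:108661886-108662185, plus strand: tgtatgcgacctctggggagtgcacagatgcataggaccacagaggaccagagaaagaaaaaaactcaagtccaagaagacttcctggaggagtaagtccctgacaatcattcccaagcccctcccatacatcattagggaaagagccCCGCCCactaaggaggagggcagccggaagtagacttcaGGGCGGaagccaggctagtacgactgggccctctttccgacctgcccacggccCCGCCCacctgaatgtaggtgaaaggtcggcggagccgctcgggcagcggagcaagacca
Hadh, chr3:131272052-131272351, minus strand: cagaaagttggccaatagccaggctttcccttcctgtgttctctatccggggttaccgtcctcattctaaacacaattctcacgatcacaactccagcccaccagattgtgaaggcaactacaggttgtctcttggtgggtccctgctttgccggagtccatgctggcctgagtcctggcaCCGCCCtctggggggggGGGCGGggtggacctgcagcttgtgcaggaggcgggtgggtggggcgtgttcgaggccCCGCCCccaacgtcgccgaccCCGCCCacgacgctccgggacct
Ech1, chr7:28825088-28825387, plus strand: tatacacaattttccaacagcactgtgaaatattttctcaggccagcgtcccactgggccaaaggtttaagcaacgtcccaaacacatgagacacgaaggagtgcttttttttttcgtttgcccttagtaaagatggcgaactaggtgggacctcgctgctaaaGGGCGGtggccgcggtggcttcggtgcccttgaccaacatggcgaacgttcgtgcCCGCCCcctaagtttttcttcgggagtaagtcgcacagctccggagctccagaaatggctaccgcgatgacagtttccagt
Etfb, chr7:43443822-43444121, plus strand: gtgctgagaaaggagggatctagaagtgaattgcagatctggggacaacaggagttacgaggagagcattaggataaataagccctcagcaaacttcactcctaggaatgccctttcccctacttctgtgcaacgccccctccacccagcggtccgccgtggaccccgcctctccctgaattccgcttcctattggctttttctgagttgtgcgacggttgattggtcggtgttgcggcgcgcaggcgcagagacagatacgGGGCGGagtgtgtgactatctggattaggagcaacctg
Ucp3, chr7:100472741-100473040, plus strand: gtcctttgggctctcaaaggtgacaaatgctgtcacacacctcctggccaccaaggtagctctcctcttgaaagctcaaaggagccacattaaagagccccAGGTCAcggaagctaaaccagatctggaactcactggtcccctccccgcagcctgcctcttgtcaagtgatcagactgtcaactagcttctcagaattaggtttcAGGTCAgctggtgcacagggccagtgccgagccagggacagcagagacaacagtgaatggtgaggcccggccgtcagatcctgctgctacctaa
Of the 6, Hadh had 4 GC boxes, Cpt2 and Slc25a20 had 3 each, Ech1 had 2 and Etfb had 1. Ucp3 had none in this window and was the one of the 6 with AGGTCA, which it held 2 times. Over the 33 promoters on file for 30 of the 35 listed genes, 69.7% held a GC box, against 35.7% of all 32851 promoters of this length. AGGTCA was in 21.2% of the members' promoters and in 16.3% of all. The longer TCAAGGTCA, the element of estrogen-related receptors, which contains AGGTCA, was found in Acsl6 alone, 3.03% of the members' promoters against 0.423% of all. The direct repeat 1, a pair of AGGTCA half-sites 1 base apart that PPAR dimers bind, was in none of them and in 0.0396% of all, and the FoxO core TGTTTAC was in none and in 3.65% of all. A match is a run of letters and not a measured binding site.

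At 4 weeks after AAC, 4 member probe sets fell against before AAC and 1 rose. Those that fell belong to Etfb, Ech1, Hadh and Ucp3, and the one that rose to Acad9. Of the 46 member probe sets 10.9% passed, against 4.43% of all probe sets tested (limma, two-sided, adjusted p under 0.05 by Benjamini-Hochberg over all 27083). The background was 1.68% for falls and 2.75% for rises. At an unadjusted p under 0.05, 41.3% of the 46 passed, against 21.7% of all. Since 39 of the 46 sit on chip 430A, its own background is the nearer one: 12.8% of the 39 passed, against 7.23% of all probe sets on that chip. At an unadjusted p under 0.05 the shares on that chip were 48.7% and 30.8%. The median log2 difference of the 46 was -0.147, beside -0.040 over all probe sets. Of the 46, 33 were below 0, as were 14796 of all 27083. Groups did not overlap in 16 member probe sets that were lower and 3 that were higher, 41.3% against a background of 29.3% (16.2% lower and 13.1% higher). On chip 430A the shares without overlap were 48.7% of the members and 39.2% of all.

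With Akt on, 4 member probe sets rose against 4 weeks and none fell. They belong to Cpt2, Slc25a20, Crat and Ucp3, of which the first 3 are parts of the carnitine shuttle. The other probe sets of Crat had log2 differences of -0.06 and -1.09 there and did not pass. The 4 rises are 8.70% of the 46, against a background of 2.54% for calls in either direction and 1.08% for rises. On chip 430A, 10.3% of the members passed, against 3.76% of all probe sets there. At an unadjusted p under 0.05, 16 of the 46 passed in either direction, 34.8% against 17.0% of all probe sets. On chip 430A these shares were 35.9% and 22.9%. The median log2 difference was 0.125, beside 0.024 over all probe sets. Of the 46, 30 were above 0, as were 14388 of all 27083. Groups did not overlap in 11 member probe sets that were higher and 3 that were lower, 30.4% against a background of 20.6% (10.8% higher and 9.79% lower). On chip 430A the shares without overlap were 33.3% of the members and 26.0% of all. This comparison and the one before it share the 4-week hearts.

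Against before AAC, Akt-on hearts had 6 member probe sets higher and 6 lower. Cpt2, both probe sets of Slc25a20, Acad9, and 1 probe set each of Acaa2 and Ucp3 rose. Probe sets 1417008_at and 1441919_x_at of Crat, Acad10, Hadhb, Ech1 and Etfb fell. The share called was 26.1% of the 46, against a background of 13.4% (6.86% higher and 6.51% lower), and on chip 430A 28.2% against 18.6%. At an unadjusted p under 0.05 the shares were 39.1% of the 46 and 28.0% of all, and on chip 430A 41.0% and 36.0%. The median log2 difference was -0.071, beside -0.012 over all probe sets. Groups did not overlap in 10 member probe sets that were higher and 12 that were lower, 47.8% against a background of 32.1% (15.7% higher and 16.4% lower). On chip 430A the shares without overlap were nearer, 43.6% of the members and 38.7% of all.

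**Figure D1:**
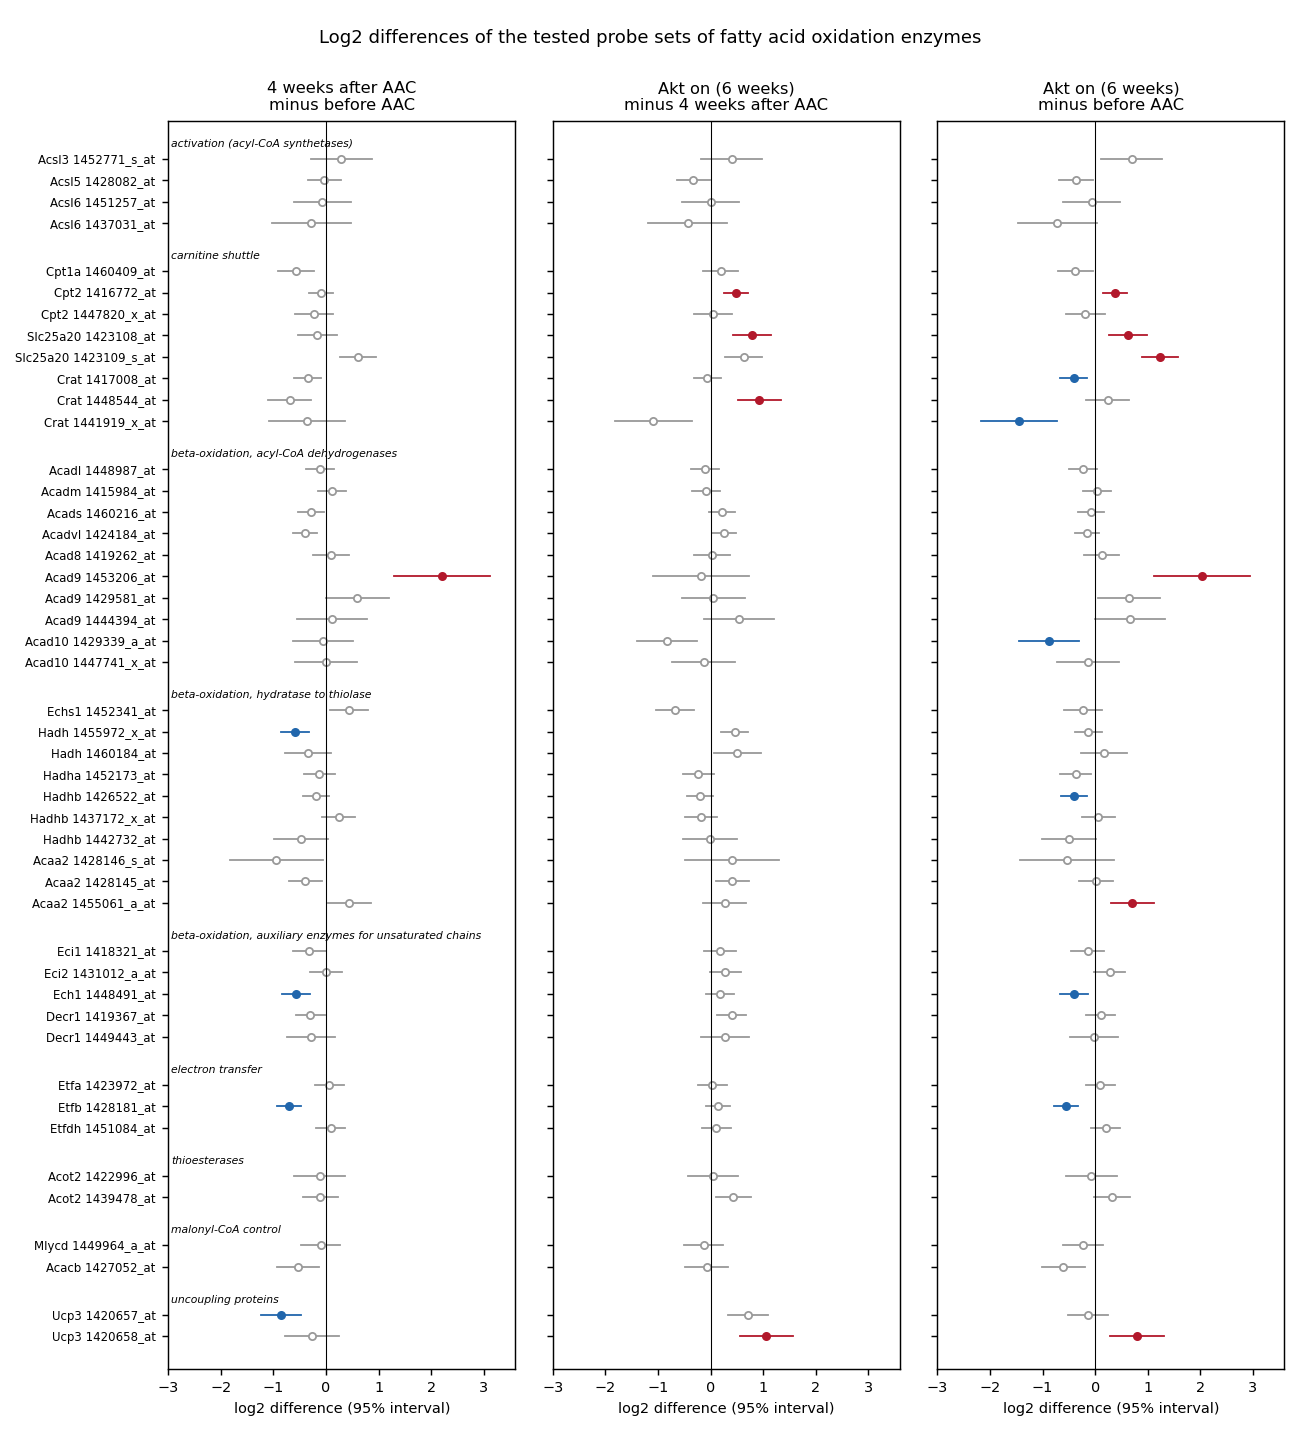
Log2 differences with 95% intervals of the 46 tested member probe sets, ordered by step, for the 3 comparisons. Filled points passed the test (red higher, blue lower). Falls at 4 weeks are spread over 4 genes of different steps, while 3 of the 4 rises with Akt on lie in the carnitine shuttle. The 3 probe sets of Crat differ in sign with Akt on against 4 weeks.

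The median log2 deviation of the 30 tested members, by their main probe sets, from the mean of the 9 hearts was 0.137, 0.086 and 0.108 in before-AAC hearts. It was -0.269, -0.052 and 0.045 in 4-week hearts and 0.015, -0.041 and 0.146 in Akt-on hearts. The 4-week hearts lay below all before-AAC hearts, and Akt-on hearts overlapped both. The lowest value came from 4-week replicate 1, one of the hearts rich in atrial transcripts. The other atrial-rich hearts, Akt-on replicate 1 and before-AAC replicates 2 and 3, stood at 0.015, 0.086 and 0.108. A link of these medians with atrial content was not tested. Over all probe sets tested the same medians stayed between -0.010 and 0.038. There too the 4-week hearts lay below all before-AAC hearts, at -0.003, -0.003 and -0.010 against 0.038, 0.019 and 0.019. The absence of overlap is thus not particular to the members.

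**Figure D2:**
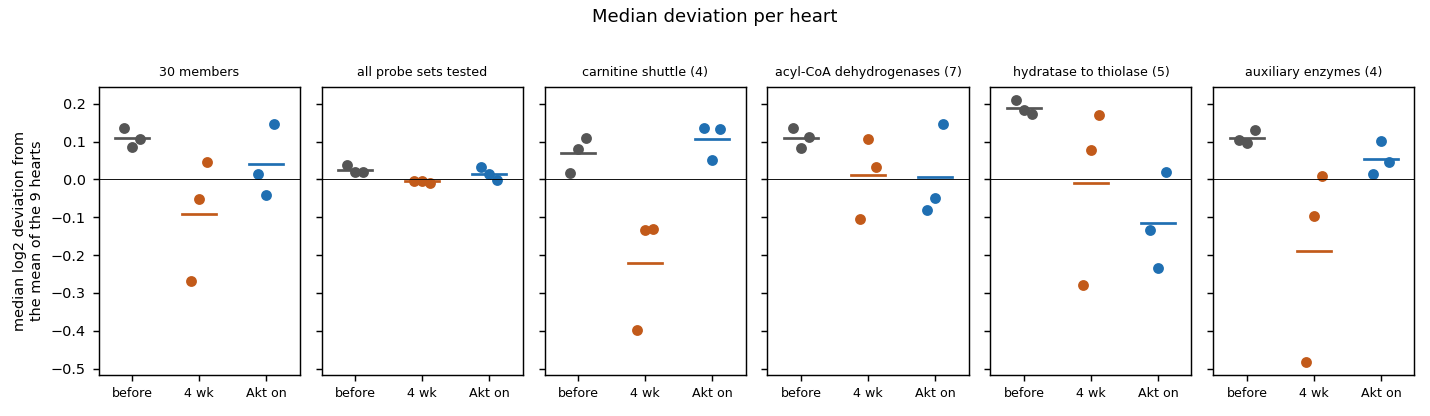
Median log2 deviation of each heart from the mean of the 9 hearts, for the 30 members, for all probe sets tested and for 4 steps of the pathway. Points are hearts and lines are group means. Over the 30 members the 4-week hearts lie between -0.269 and 0.045, and the before-AAC hearts between 0.086 and 0.137. Over all probe sets tested these groups also lie apart, at -0.010 to -0.003 and 0.019 to 0.038.

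Activation to acyl-CoA is the work of the long-chain synthetases. None of the 4 probe sets of Acsl3, Acsl5 and Acsl6 passed in any comparison by limma's adjusted p, while 0, 1 and 2 of the 4 had an unadjusted p under 0.05 in the 3 comparisons, where 21.7%, 17.0% and 28.0% of all probe sets did. Acsl5 had 418, 409.9 and 331 signal units in Akt-on hearts, all below the 471, 464 and 543 of 4-week hearts, a log2 difference of -0.33 (SE 0.145, limma adjusted p = 0.27). Acsl3 had 158.6, 78.3 and 113.5 units in Akt-on hearts, all above the 74.4, 57.0 and 43.8 units of before-AAC hearts, with a difference of 0.70 (SE 0.27, adjusted p = 0.11). The 430A probe set of Acsl6 differed by at most 0.07 in either direction. Acsl4, below the filter, had its brightest probe set between 88.8 and 168.0 units.

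In the carnitine shuttle, Cpt2 and the carrier rose with Akt on. Cpt2, the inner membrane enzyme that remakes acyl-CoA in the matrix, had 4457, 4431 and 4807 signal units in before-AAC hearts, 3928, 4416 and 4423 in 4-week hearts, and 5556, 6066 and 6251 in Akt-on hearts. Each Akt-on heart lay above the other 6 hearts. Akt-on hearts exceeded 4-week hearts 1.40-fold (log2 difference 0.48, SE 0.11, adjusted p = 0.037) and before-AAC hearts by 0.38 on the log2 scale (adjusted p = 0.035). Its dimmer probe set 1447820_x_at, with 193 to 281 units, showed 0.05 for the first of these (adjusted p = 0.91). The x in such a suffix marks probes that may also pick up other transcripts. It also stands in probe sets with calls, 1455972_x_at of Hadh, 1441919_x_at of Crat, and 1434100_x_at of Ppargc1a and 1434465_x_at of Vldlr among the neighbouring genes. The s of 1423109_s_at of Slc25a20 marks probes shared by several transcripts.

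Slc25a20, the carrier that exchanges acylcarnitine for carnitine across the inner membrane, had 2414, 2578 and 2910.4 units in before-AAC hearts. It had 2024, 2366 and 2678 units in 4-week hearts, and 4908, 3175 and 4315 in Akt-on hearts. All Akt-on hearts lay above the other 6, and 4-week and before-AAC hearts overlapped. Under Akt the carrier was 1.73-fold above its 4-week level (log2 difference 0.79, SE 0.17, adjusted p = 0.032) and 1.54-fold above its level before AAC (adjusted p = 0.029). Its other probe set, 1423109_s_at, stood apart in all groups, with 933 to 1192 units before AAC, 1368 to 1787 at 4 weeks and 2098 to 2858 with Akt on. There the Akt-on hearts were 2.36-fold above before AAC (log2 difference 1.24, SE 0.16, adjusted p = 0.0013), and neither single step passed (adjusted p = 0.051 at 4 weeks and 0.061 with Akt on). The probe sets of the carrier thus gave different values for 4 weeks against before AAC, -0.16 and 0.61.

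Cpt1a, the liver form of the outer membrane enzyme, had 854, 940.3 and 1084 units in before-AAC hearts. It had 532, 742 and 641 units in 4-week hearts, and 808, 669 and 713 in Akt-on hearts. Both later groups lay below before AAC. The test was not passed at 4 weeks (log2 difference -0.57, SE 0.16, adjusted p = 0.059) or by Akt-on against before-AAC hearts (-0.38, adjusted p = 0.13).

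Crat, which moves acetyl groups and short chains onto carnitine, gave unlike values in its 3 probe sets. The main one, 1417008_at, had 3666, 3878 and 3678 units in before-AAC hearts, 2718, 2864 and 3262 in 4-week hearts and 2744, 3099 and 2609 in Akt-on hearts. It was lower with Akt on than before AAC (log2 difference -0.41, SE 0.12, adjusted p = 0.040) and near 0 against 4 weeks (-0.06, adjusted p = 0.84). Probe set 1448544_at was 1.90-fold higher in Akt-on than in 4-week hearts (0.93, SE 0.19, adjusted p = 0.027), with 541, 395 and 329 units against 192, 175 and 245. The 430B probe set 1441919_x_at was lower with Akt on than before AAC (-1.45, SE 0.33, adjusted p = 0.014), where Akt-on hearts had 766, 201 and 337 units and before-AAC hearts 991, 1127 and 1159. With Akt on against 4 weeks, 1441919_x_at gave -1.09 (SE 0.33, adjusted p = 0.11), opposite in sign to 1448544_at. Its 4-week hearts had 639, 994 and 922 units. Which transcript each probe set reads was not tested.

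**Figure D3:**
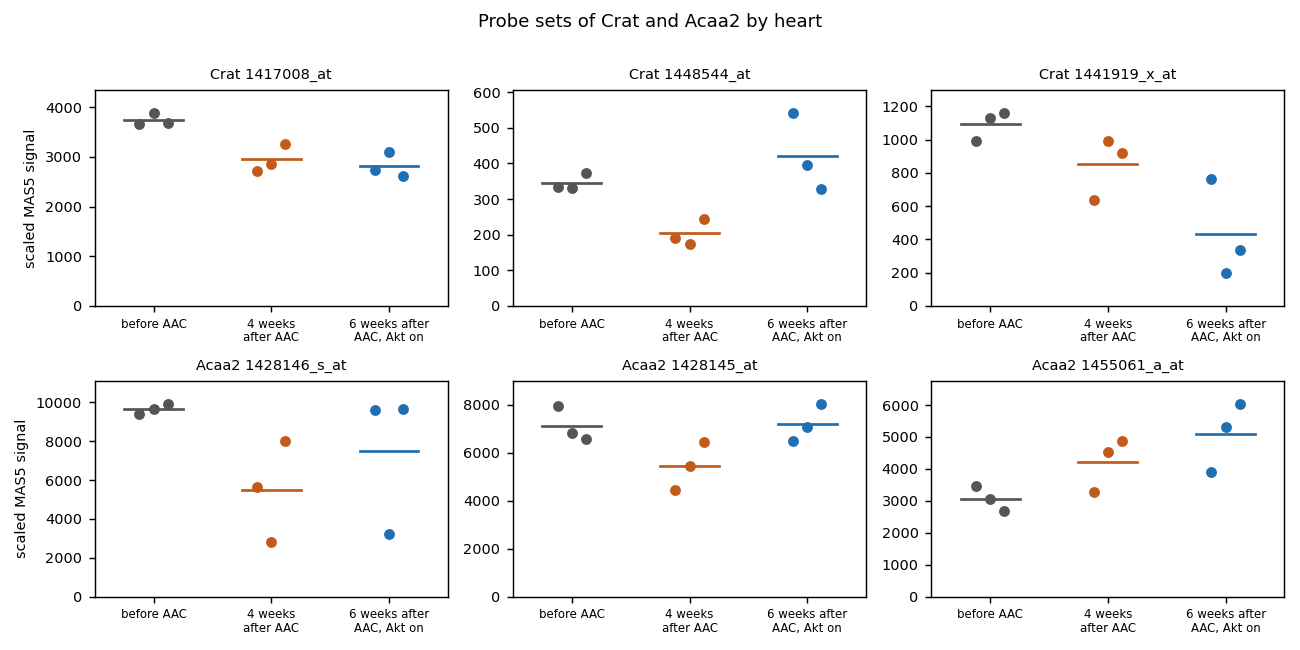
Scaled MAS5 signals of 3 probe sets each of Crat and Acaa2 in the 9 hearts, with group means as lines. With Akt on, Crat lies at 329 to 541 units in one probe set, above the 4-week hearts, and at 201 to 766 in another, below the before-AAC hearts.

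The acyl-CoA dehydrogenases, which start each round for chains of a given length, did not pass the test at the enzymes for very long, long, medium and short chains. Acadm, the medium-chain enzyme, had 13609, 11881 and 12433 units in before-AAC hearts, 12402, 14094 and 14719 in 4-week hearts and 11013, 13529.9 and 14462 in Akt-on hearts. The groups overlapped, with log2 differences of 0.12 at 4 weeks (95% interval -0.14 to 0.38) and -0.09 with Akt on against 4 weeks (-0.35 to 0.18). Acadvl, for very long chains, had 16939, 14675 and 15410.4 units in before-AAC hearts, 10837, 12482 and 12307 in 4-week hearts and 13019, 14195 and 15263 in Akt-on hearts. The 4-week hearts lay below both other groups, with a difference of -0.40 against before AAC (SE 0.10, adjusted p = 0.051) and 0.25 for Akt on against 4 weeks (adjusted p = 0.24). Acadl, Acads and Acad8, the last an enzyme of valine breakdown, did not pass in any comparison, with differences between -0.29 and 0.22.

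Acad9, an acyl-CoA dehydrogenase also known as an assembly factor of respiratory complex I, was the member that rose at 4 weeks. Its main probe set 1453206_at had 94.9, 43.2 and 147 units in before-AAC hearts, 640, 537 and 406 in 4-week hearts, and 198, 584 and 784 in Akt-on hearts. Every later heart lay above every before-AAC heart. The rise was 4.61-fold at 4 weeks (log2 difference 2.20, SE 0.42, adjusted p = 0.019) and 4.07-fold for Akt-on against before-AAC hearts (2.03, adjusted p = 0.0094). The before-AAC signals of this probe set were dim, and their mean lay below the 123.5 at which Acsl4 missed the filter. It passed the filter through the later hearts, so both folds rest on a reference group of low signal. Probe set 1429581_at gave 0.60 at 4 weeks (adjusted p = 0.23) with 264 to 288 units against at most 265 before AAC, and the 430B probe set gave 0.12 (adjusted p = 0.87). The large value thus stands in 1 of 3 probe sets. Acad10, a member of the same family, had 199, 106 and 80.2 units in Akt-on hearts against 217, 273 and 261 before AAC (-0.88, SE 0.26, adjusted p = 0.044), while its 430B probe set gave -0.13 (adjusted p = 0.80). The 4-week hearts had 314.3, 216.6 and 200.2 units at the main probe set, all above the Akt-on hearts. Akt on against 4 weeks gave -0.83 there without passing (SE 0.26, adjusted p = 0.12).

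Of the enzymes from hydratase to thiolase, Hadh fell at 4 weeks. Hadh, the 3-hydroxyacyl-CoA dehydrogenase for medium and short chains, had at probe set 1455972_x_at 16456, 19426 and 19658 units in before-AAC hearts, 12266, 14176 and 10606 in 4-week hearts, and 16019.8, 16719.8 and 17912 in Akt-on hearts. The 4-week hearts lay below both other groups, and the other groups overlapped. Hadh fell at 4 weeks (log2 difference -0.59, SE 0.12, adjusted p = 0.025), and the difference of Akt on against 4 weeks was 0.46 (SE 0.12, adjusted p = 0.069). Its second probe set gave -0.34 and 0.51 for the same comparisons (adjusted p = 0.36 and 0.22).

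Hadha and Hadhb are the subunits of the trifunctional protein, which carries out the last steps for long chains at the inner membrane. Hadha had 9662, 9486 and 8984 units in before-AAC hearts, 6781, 9821 and 9411 in 4-week hearts and 7614, 6800.1 and 7412 in Akt-on hearts. Akt-on hearts lay below before AAC (-0.37, SE 0.135, adjusted p = 0.098) without passing. Hadhb probe set 1426522_at had 19234, 18135 and 18245 units in before-AAC hearts, 14891, 17089.6 and 16864 in 4-week hearts and 11998, 15809 and 14794 in Akt-on hearts. It fell with Akt on against before AAC (-0.39, SE 0.11, adjusted p = 0.040). Its probe set 1437172_x_at gave 0.06 there (adjusted p = 0.83) and the 430B probe set -0.50 (adjusted p = 0.19). The log2 ratio of Hadhb to Hadha differed between groups by -0.058, 0.031 and -0.027 in the 3 comparisons (exact permutation p = 0.7 to 0.9, adjusted p = 0.9 over the 6 subunit tests).

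Echs1, the short-chain hydratase, passed in no comparison. It had 5622, 4832 and 4906 units in before-AAC hearts, 6218, 6966 and 7665 in 4-week hearts, and 3302, 4546 and 5426 in Akt-on hearts. The 4-week hearts lay above both other groups, with differences of 0.44 against before AAC (adjusted p = 0.15) and -0.67 for Akt on against 4 weeks (SE 0.165, adjusted p = 0.055). The 3 probe sets of the thiolase Acaa2 differed. The main one had 9397, 9683 and 9925 units before AAC but 5650.4, 2787 and 7989.5 at 4 weeks and 9582, 3199 and 9681 with Akt on, so that replicate 2 was the lowest heart of each later group. Probe set 1455061_a_at rose with Akt on against before AAC (0.71, SE 0.19, adjusted p = 0.027), with 3905, 5312 and 6039 units against 3472, 3054 and 2672. The third, 1428145_at, gave 0.02 for that comparison (adjusted p = 0.96).

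**Figure D4:**
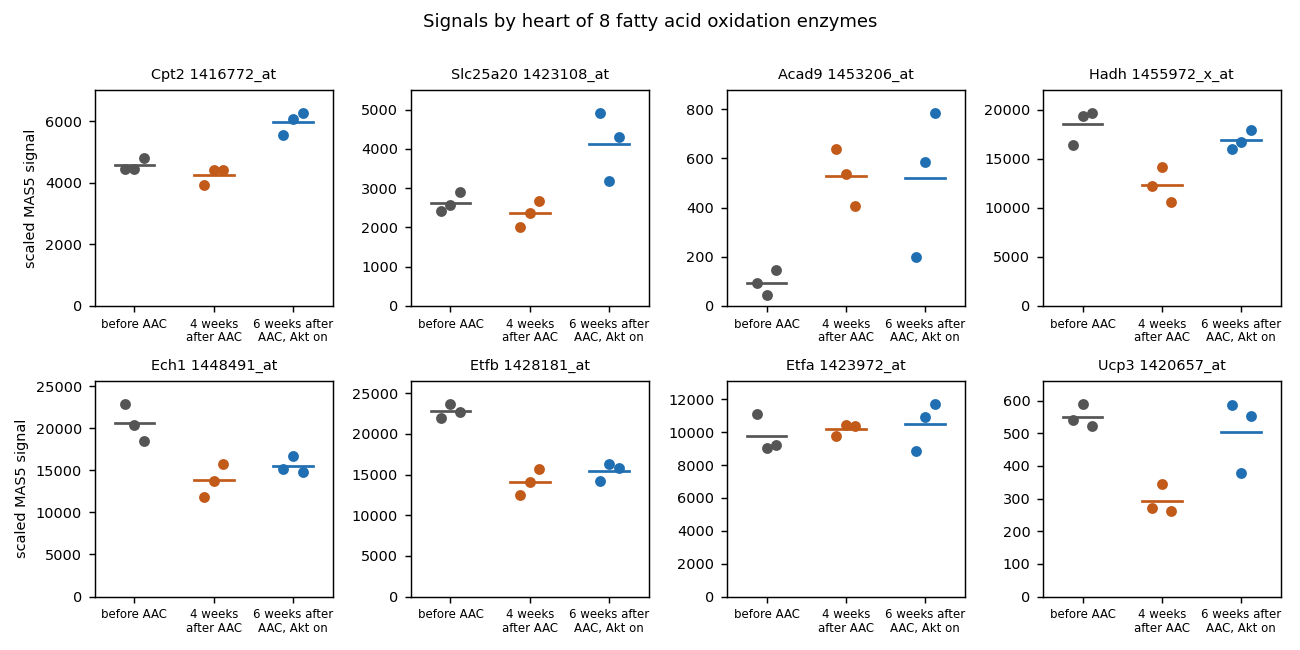
Scaled MAS5 signals of 8 members at their main probe sets in the 9 hearts, with group means as lines and axes from 0. Cpt2 and Slc25a20 are higher with Akt on than in the other 6 hearts. Etfb lies between 12473 and 16266 in the later groups and at 21917 or more before AAC, while Etfa overlaps in all groups.

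The auxiliary enzymes rearrange double bonds so that unsaturated chains can pass. All 5 probe sets of Eci1, Eci2, Ech1 and Decr1 had differences below 0 at 4 weeks, though that of Eci2 was nearly 0, and above 0 with Akt on against 4 weeks, and these comparisons share the 4-week hearts. Ech1, a dienoyl-CoA isomerase, was the one that passed. It had 22917, 20419 and 18443 units in before-AAC hearts, 11883, 13756 and 15814 in 4-week hearts and 15166, 16735 and 14794 in Akt-on hearts. Both later groups lay below before AAC, by -0.58 at 4 weeks (SE 0.12, adjusted p = 0.026) and by -0.40 with Akt on (SE 0.12, adjusted p = 0.0498), just under the threshold. Decr1, the dienoyl-CoA reductase, was at 5444 to 7433 units in 4-week hearts, below the 7492 to 8580 before AAC, and reached 8403 to 9009 with Akt on (0.40 against 4 weeks, adjusted p = 0.12).

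In electron transfer, 1 subunit of the flavoprotein fell and the other overlapped in every comparison. Etfb, the β subunit, had 21917, 23695 and 22707 units in before-AAC hearts, 12473, 14054 and 15648 in 4-week hearts, and 14219.8, 16266 and 15806 in Akt-on hearts. Etfb was 1.62-fold lower at 4 weeks than before AAC (log2 difference -0.70, SE 0.10, adjusted p = 0.0088) and 1.48-fold lower with Akt on than before AAC (-0.56, SE 0.10, adjusted p = 0.0060). Akt-on and 4-week hearts overlapped (0.14, adjusted p = 0.55). Etfa, the α subunit, had 11079, 9023 and 9207 units in before-AAC hearts, 9780.2, 10422 and 10359 in 4-week hearts and 8858, 10896 and 11727 in Akt-on hearts. The log2 ratio of Etfb to Etfa differed by -0.766 at 4 weeks from before AAC, with no overlap of hearts, and by -0.661 with Akt on (exact permutation p = 0.1 each, the smallest possible, adjusted p = 0.3 over 6 tests). Etfdh, which hands the electrons to ubiquinone, differed by 0.09, 0.11 and 0.20 in the 3 comparisons and did not pass.

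Among the proteins that limit or accompany the pathway, Ucp3 changed. Ucp3 is a carrier of the inner membrane in muscle, and in mice its gene responds to PPARα. Probe set 1420657_at had 541, 590.5 and 522 units in before-AAC hearts, 272, 344 and 261 in 4-week hearts, and 586, 377 and 554 in Akt-on hearts. The 4-week hearts lay below all others. Ucp3 was 1.81-fold lower at 4 weeks than before AAC (-0.85, SE 0.18, adjusted p = 0.025), and Akt on against 4 weeks gave 0.71 (SE 0.18, adjusted p = 0.056). Its second probe set, 1420658_at, was 2.09-fold higher in Akt-on than in 4-week hearts (1.06, SE 0.23, adjusted p = 0.038) with 404, 218 and 318 units against 119, 128 and 142. It was also higher than before AAC (0.79, adjusted p = 0.044), where 1420657_at gave -0.14 (adjusted p = 0.67). At 4 weeks against before AAC it gave -0.27 (adjusted p = 0.55).

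Acacb makes the malonyl-CoA that inhibits carnitine palmitoyltransferase 1, and Mlycd removes it. Acacb had 2061, 2014 and 2461 units in 4-week hearts against 3392, 3007 and 3063 before AAC (-0.53, SE 0.19, adjusted p = 0.12). Akt-on hearts had 2468, 1449.5 and 2441 units and gave -0.60 against before AAC (adjusted p = 0.052). Mlycd overlapped in all comparisons, with differences of -0.10, -0.13 and -0.24. Acot2, a matrix thioesterase that frees fatty acids from coenzyme A, did not pass at either probe set, and its 430B probe set, at 1549.5 to 1948 units with Akt on against 1167 to 1457 at 4 weeks, gave 0.43 (adjusted p = 0.17).

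The calls were tried again without each heart in turn. Slc25a20 1423109_s_at and Acad9 with Akt on against before AAC, and Etfb in both of its comparisons, kept their calls each time (highest adjusted p = 0.0072, 0.040, 0.047 at 4 weeks and 0.030 with Akt on). The other calls at 4 weeks ended, at adjusted p of 0.052 to 0.095, when a heart was left out. For Ucp3 this was any of the 6 hearts compared, for Ech1 any of them but 4-week replicate 3, for Acad9 4-week or before-AAC replicates 1 and 2, and for Hadh 4-week replicates 1 and 3 or before-AAC replicates 2 and 3. The calls of Akt-on against 4-week hearts ended at adjusted p of 0.053 to 0.095. For Cpt2 this was any of the 9 hearts but Akt-on replicate 1. For Slc25a20 it was any but Akt-on replicate 2 and before-AAC replicate 1, and for Ucp3 any but Akt-on replicate 2 and before-AAC replicates 1 and 2. For Crat it was replicates 1 and 2 of either group.

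Against before AAC, the other calls with Akt on ended at adjusted p of 0.051 to 0.165 without single hearts. For Cpt2 these were Akt-on replicates 2 and 3, 4-week replicate 2 and each before-AAC heart. For Crat 1417008_at and Hadhb they were Akt-on replicates 1 and 3, 4-week replicate 2 and each before-AAC heart. For Slc25a20 1423108_at they were Akt-on replicates 1 and 3 and each before-AAC heart, and for Ucp3 all but Akt-on replicate 2 and before-AAC replicate 1. For Acad10 they were all but Akt-on replicate 1 and 4-week replicate 1, and for Ech1 all but 4-week replicates 1 and 3. For Acaa2 they were replicates 2 and 3 of either group, and for Crat 1441919_x_at Akt-on replicate 3 and before-AAC replicate 3 (0.053 and 0.052).

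Scaling also mattered. Under quantile scaling 6 of the 21 member calls ended. At 4 weeks, Hadh came to -0.31 (limma adjusted p = 0.22) and Ech1 to -0.28 (0.14), while Etfb came to -0.39 and still passed (0.037). With Akt on against before AAC, Etfb came to -0.23 (0.11), Ech1 to -0.08 (0.64) and Hadhb to -0.09 (0.55). The rise of Ucp3 over 4 weeks also ended (0.059).

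Averaged over all probe sets of a gene, 10 of the 21 ended. With Akt on against before AAC, Crat came to -0.09 (adjusted p = 0.72), Acaa2 to 0.07 (0.86), Cpt2 to 0.10 (0.61), Hadhb to -0.17 (0.38) and Ucp3 to 0.33 (0.24). Against 4 weeks, Cpt2 came to 0.27 (0.20) and Crat to 0.43 (0.096). At 4 weeks against before AAC, Ucp3 came to -0.56 (0.085) and Hadh also ended (0.10), while Acad9 came to 1.40 (0.033) and passed. With Akt on against before AAC, Acad9 came to 1.34 (0.018) and passed.

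Without the 4 hearts rich in atrial transcripts, 2 Akt-on, 2 4-week and 1 before-AAC heart remained, and the lone heart was taken to vary like the others. Of the 21 member calls those of Slc25a20 1423109_s_at, Acad9 and Crat 1441919_x_at with Akt on against before AAC held (adjusted p = 0.034, 0.021 and 0.039). At 4 weeks none held, while Etfb kept a log2 difference of -0.56 (adjusted p = 0.28), Ech1 of -0.64 (0.27), Hadh of -0.42 (0.46), Ucp3 of -0.79 (0.38) and Acad9 of 1.98 (0.13). None of the 4 rises of Akt-on over 4-week hearts held, with 0.48 for Cpt2 (adjusted p = 0.20), 0.55 for Slc25a20 (0.26), 0.71 for Crat (0.22) and 0.83 for Ucp3 (0.20). Between Akt-on and before-AAC hearts, Ucp3 came to 0.27 (0.69) and Etfb to -0.45 (0.18). With the atrial score as a covariate, 20 of the 21 calls held, and Ucp3 with Akt on against before AAC ended (0.0545). Over all probe sets 5, 100 and 250 calls, without the 4 hearts, were left in the 3 comparisons, beside 1199, 688 and 3623 with all hearts.

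The neighbouring pathways were described from a list of 80 genes, of which 68 with 125 probe sets were tested. The list was chosen with earlier results of these data known, so its shares are a description only. Some genes, such as Ppargc1a, Lpl and Ivd, count with several probe sets. On chip 430A the background for falls was 2.06% with Akt on against 4 weeks and 8.62% against before AAC. At 4 weeks 5 of the 125 rose and 4 fell. Between Akt-on and 4-week hearts, 1 rose and 15 fell, 12.0% beside a background of 1.46% for falls and 0% of the members. Against before AAC, 3 rose and 28 fell, 22.4% beside a background of 6.51%, and the median log2 difference was -0.259. The members and these lists were set side by side as a description, and the difference between them was not tested.

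By group, the regulators and kinases had 7 of 38 probe sets lower with Akt on than at 4 weeks, 18.4% beside a background of 1.46%. Ppargc1a, which encodes PGC-1α, was 3.06-fold lower at probe set 1434100_x_at (log2 difference -1.61, SE 0.21, adjusted p = 0.0035), with 104, 104 and 122 units in Akt-on hearts against 292, 400.4 and 552 in 4-week hearts. The groups did not overlap there, and 3 of its 5 probe sets passed. Against before AAC, Akt-on hearts were lower at 1456395_at (-1.36, adjusted p = 0.0025). Klf15, a factor that promotes cardiac lipid use, was 2.58-fold lower (-1.37, SE 0.25, adjusted p = 0.015). At 4 weeks the kinase subunit gene Prkaa2 was higher than before AAC by 0.64 at 1 of 3 probe sets (adjusted p = 0.027).

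Of uptake and storage, 4 of 39 probe sets fell at 4 weeks, 10.3% beside a background of 1.68%. Of the 4, 3 were of the single gene Mgll, the monoglyceride lipase. The other was Gpam, the first acyltransferase of triglyceride synthesis (-0.72, SE 0.12, adjusted p = 0.014). Mgll 1450391_a_at gave -0.74 (adjusted p = 0.026). Lpl, which frees fatty acids from lipoproteins, was lower with Akt on than at 4 weeks at both probe sets, by -1.12 at 1431056_a_at (adjusted p = 0.0215). Angptl4, an inhibitor of Lpl, was the 1 gene of all these lists that rose there, 4.81-fold, with 896, 518 and 445 units in Akt-on hearts against 91.5, 228 and 35.9 in 4-week hearts (2.27, SE 0.46, adjusted p = 0.026). Its 4-week signals were dim, so the fold rests on a reference group of low signal. With no filter on signal the call of Angptl4 ended (limma adjusted p = 0.0605). Against before AAC, Akt-on hearts had 11 of the 39 lower, 28.2% beside a background of 6.51%. Fabp4 1424155_at, a lipid chaperone of endothelium and fat, led them (-1.69, adjusted p = 0.0011). Lpl 1415904_at (-0.73, adjusted p = 0.0015), Gpam 1419499_at (-0.85, adjusted p = 0.0019) and the lipoprotein receptor gene Vldlr 1434465_x_at (-1.66, adjusted p = 0.0025) followed. The other Gpam probe set, 1425834_a_at, gave 0.82 there (adjusted p = 0.27), and the mean of both gave -0.01 (0.97). Endothelial marker sums were lower in the same hearts, with 2 of 7 probe sets called, as given above.

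Among other acyl-CoA enzymes and ketone use, Ivd, the isovaleryl-CoA dehydrogenase of leucine breakdown, was 1.59-fold higher at 4 weeks (0.67, SE 0.14, adjusted p = 0.026) and 2.12-fold lower with Akt on than at 4 weeks (-1.08, adjusted p = 0.0032). Ivd 1418238_at had 1858, 1717 and 1867 units in before-AAC hearts, 2824, 3005 and 2859.5 in 4-week hearts, and 1374, 1105 and 1622 in Akt-on hearts, with no overlap. Oxct1, which activates ketone bodies, was lower with Akt on than at 4 weeks at 1428140_at (-0.79, SE 0.14, adjusted p = 0.014) and than before AAC at 1449059_a_at (-0.95, adjusted p = 0.0021). Of the 9 probe sets for ketone use, 1 passed against 4 weeks, 11.1% beside a background of 1.46% for falls. The mean of all Oxct1 probe sets gave -0.48 there and did not pass (adjusted p = 0.10). Against before AAC that mean gave -0.55 and passed (0.032). Acad11, whose enzyme acts on very long chains, rose at 4 weeks (0.88, SE 0.21, adjusted p = 0.036). So did Crot, the peroxisomal carnitine octanoyltransferase (0.61, SE 0.15, adjusted p = 0.039), at 1 of 2 probe sets. None of the 17 peroxisomal probe sets fell in any comparison by limma's adjusted p. At 4 weeks 2 rose, 11.8% beside a background of 2.75%. They were Crot and Hsd17b4 (0.46, adjusted p = 0.042, named after its value was seen). At an unadjusted p under 0.05, 29.4%, 23.5% and 17.6% of the 17 passed in either direction in the 3 comparisons (5, 4 and 3 probe sets). Of all probe sets 21.7%, 17.0% and 28.0% did, less than the peroxisomal share in the first 2 comparisons and more in the third.

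The calls of these neighbouring genes also rested in part on single hearts. Those of Akt-on against before-AAC hearts named here held without each heart in turn (highest adjusted p = 0.0151), as did Ivd (0.0152) and Ppargc1a (0.0155) against 4 weeks. Of the other named calls against 4 weeks, that of Oxct1 ended without 4-week replicates 2 or 3 and that of Klf15 without Akt-on replicate 2 or 4-week replicate 3. That of Lpl ended without Akt-on replicates 1 or 2 or 4-week replicate 3, and that of Angptl4 without Akt-on replicates 1 or 2 or 4-week replicates 1 or 3. At 4 weeks Ivd, Acad11 and Crot ended without any of the 6 hearts, Prkaa2 without any but 4-week replicate 3, Mgll without 4-week replicate 1 or any before-AAC heart, and Gpam without 4-week replicate 2 or before-AAC replicates 2 or 3. Without the 4 atrial-rich hearts, Ppargc1a against 4 weeks (-1.80, adjusted p = 0.034) and Fabp4 against before AAC (-1.77, adjusted p = 0.024) held of the 18 calls named, 6 per comparison with Hsd17b4 left aside.

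**Figure D5:**
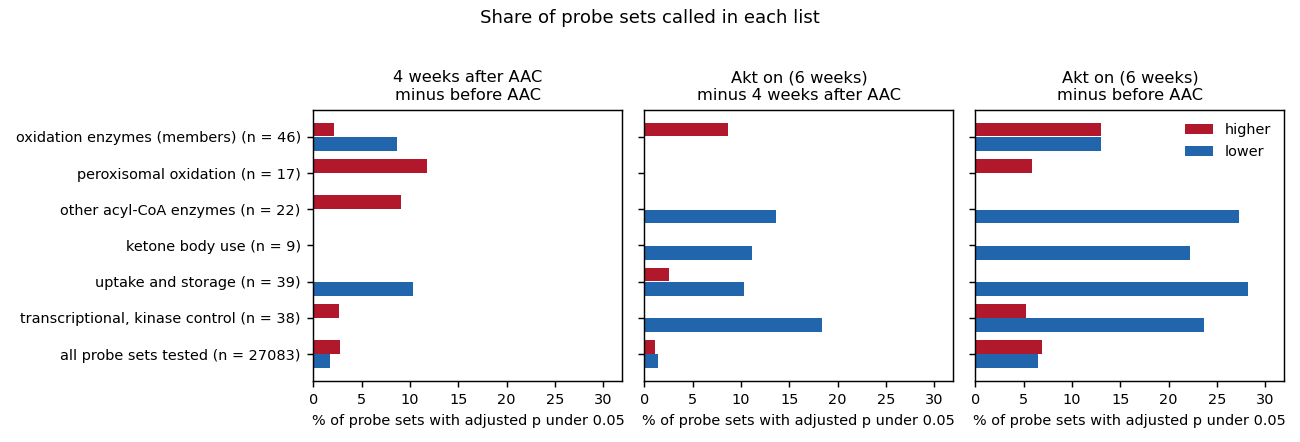
Share of probe sets that passed the test as higher or lower, for the 46 members, for 5 lists of neighbouring pathways and for all 27083 probe sets tested. With Akt on against 4 weeks the members have 8.70% higher and 0% lower, and the regulators and kinases 0% higher and 18.4% lower.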

How the data were processed

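Gene expression in 9 mouse hearts was read on 18 arrays, chips 430A and 430B for each heart, in 3 groups of 3. The deposited values are intensities, MAS5 signals on a linear scale, per the submitters' processing notes. The authors isolated total RNA with Ultraspec-II and labelled it with biotin, per the labels' protocols. The MAS5 version and target are not given in the sources used here. Over 100 probe sets that both chips carry, the median ratio of 430B to 430A was 0.92 to 1.14 per heart. The number of arrays limits the precision (median SE of a log2 difference 0.199).

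Arrays of a chip were brought to a common 2% trimmed mean. The 128 control probe sets were left out, and the brightest 60% by mean signal on each chip were kept (27083 of 45265). In R 4.3.3, limma 3.58.1 (lmFit, eBayes with a variance trend) was fitted per chip to log2(signal + 32), with 3 group means. The 3 contrasts were tested two-sided, with Benjamini-Hochberg adjustment over both chips and a threshold of 0.05. Fold changes are on this scale and understate those of dim probe sets. Single values were compared by exact two-sided permutation tests. The fit was tested on simulated data. A p that misses the threshold does not show that groups are alike.

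The members and lists were chosen with earlier results of these data known. Every tested member is named. Values per heart are given at the main probe set for each member with a call and for Cpt1a, Acadm, Acadvl, Hadha and Hadhb, and some further probe sets are shown where they differ. Of the neighbouring genes, the called ones with the smallest p are named, at most 6 per contrast. Alternatives were other scalings, pseudocounts of 16 and 64, other filters, 1 value per gene, no variance trend, fits on 6 hearts, a replicate block, an atrial covariate and leaving out hearts. Replicate numbers recur across groups, but deviations of same-numbered hearts correlated by -0.24 to 0.14, over 0.1 in 1 of 9 pairs on 430A and 0 of 9 on 430B, so the numbers were not taken to pair the hearts.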

Additional observations from a re-analysis of the deposited data

How the results depend on the processing

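Of the 25 alternatives, 9 left out a heart each, and 1 of the others, leaving out the 4 atrial-rich hearts, was chosen after the data were seen. No difference of the 21 called member results changed sign under any alternative run, but sizes and calls did not all hold: quantile scaling ended 6 calls, the mean per gene 10, no filter 11, no variance trend 9, fits on 6 hearts 9 and averaged replicates 5. The smallest sizes left were -0.084 for Ech1 under quantile scaling, and 0.065 for Acaa2 and -0.085 for Crat as a mean per gene, all with Akt on against before AAC. Outside the members, Gpam at 4 weeks came to 0.056 as the mean of all its probe sets, against -0.722 at its bright one, and with Akt on against before AAC to -0.014, against -0.847. Medians of the members moved by less than the SD between hearts. They lay between -0.237 and -0.096 at 4 weeks, 0.037 and 0.175 with Akt on against 4 weeks, and -0.14 and 0.016 with Akt on against before AAC. Counts of calls moved more, and the cause was not tested.

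At 4 weeks the falls numbered 2 under quantile scaling, no filter, no variance trend, the replicate block or averaging 4-week replicates 1 and 3, 7 on 6 hearts alone or adjusted within each chip, and 0 without the atrial-rich hearts. The rises numbered 2 with the 40% filter or within each chip, 3 on 6 hearts and 0 without the atrial-rich hearts. With Akt on against 4 weeks, 2 rises were left under the replicate block, with no trend or as a mean per gene, 1 with the averaged replicates, 0 with no filter, on 6 hearts or without the atrial-rich hearts, and 7 within each chip. There was 1 fall under quantile scaling, the 40% filter, 1 probe set or a mean per gene, within each chip, with the atrial covariate or without the atrial-rich hearts. With Akt on against before AAC, 3 rises were left with 1 probe set per gene and 2 as a mean or without the atrial-rich hearts. There 3 falls were left under quantile scaling, no filter or no trend, and 1 without the atrial-rich hearts.

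Leaving out 1 heart gave 0 to 2 rises and 1 to 7 falls at 4 weeks, 0 to 3 rises and 0 to 2 falls with Akt on against 4 weeks, and 2 to 5 rises and 1 to 7 falls with Akt on against before AAC. Over all probe sets, the 1199 calls at 4 weeks became 612 with no filter, 748 with no trend, 560 with the replicate block, 498 with averaged replicates, 661 or 700 genes with 1 value per gene, and 121 to 1793 without a heart. The 688 calls with Akt on against 4 weeks became 445, 438, 431 and 370 under the first 4 of these, 262 on 6 hearts and at least 235 without a heart. The 3623 against before AAC became 1940 or 1897 genes and at least 1708 without a heart. The replicate numbers are a shared number only. The block ended 7 of the 21 member calls (adjusted p = 0.052 to 0.087). Under it, Etfb at 4 weeks had -0.70 (limma adjusted p = 0.018), Cpt2 with Akt on against 4 weeks 0.48 (0.059) and Ucp3 at 4 weeks -0.85 (0.055).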
